A study of Homo sapiens with 8 samples.

Results

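Long non-coding RNAs and the host transcripts of small nucleolar RNAs (snoRNAs) accounted for 178 of the 12109 transcripts with a translation efficiency in human hepatic stellate cells, a share of 1.47%. A row was taken if its identifier matched a transcript that GENCODE release 29 types as lincRNA (56 transcripts), antisense (71), sense overlapping (6) or sense intronic (2). The 34 rows that matched no transcript but carry the word lncRNA as their name, and the 9 unmatched rows whose name begins with SNHG, were added. The 135 matched transcripts came from 135 gene identifiers (LINC00941 is the symbol of 2 of them), 0.921% of the 14659 genes of those 4 types in the annotation, so what follows concerns the few that were measured. No row carried the name MALAT1, H19, MEG3, NORAD, DANCR or KCNQ1OT1. Among rows named only by the word lncRNA, the 38 matched members carry none of these as their GENCODE gene name. The 69 such rows of another annotated type were not searched for them, and the 34 unmatched ones have no gene name here. GAS5, EPB41L4A-AS1, PVT1 and TUG1 had rows, but fall outside the rule because they matched no transcript or have another annotated type.

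The study compared hepatic stellate cells treated with a silencing RNA against LARP6 (dsiLARP6, genotype given as LARP6 kd) with cells given a control silencing RNA (dsi-control, genotype given as WT). The cells are labelled a cell line, without a line's name, and were grown in DMEM with 10% serum. Each condition was profiled by ribosome profiling and by RNA-seq, with 2 libraries of each kind, 8 in all. Ribosome profiling reads the RNA fragments that remain after nuclease digestion of a lysate and pelleting of its ribosomes, and here the translation was stopped with cycloheximide before lysis. Translation efficiency is the amount of these footprints relative to the RNA of the same transcript, so transcript length enters both terms. The levels below are log2 efficiencies, where 0 is close to the typical transcript. A change is a log2 difference, knockdown over control. Knockdown levels, changes and p-values are those of the authors' deposited table, which holds their comparison but nothing for single libraries, so the spread between libraries is not known. Control levels were derived from it as the knockdown level minus the change by the authors' second method. All 8 activated stellate cell markers looked for were in the table, and 1 of 6 quiescent, 2 of 6 hepatocyte, 1 of 4 endothelial, 2 of 5 leukocyte and 2 of 3 biliary markers were. The table holds a ratio and no RNA level, so it does not show how far LARP6 was silenced, and a change in all cells cannot be told apart from one in some of them.

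A long non-coding RNA carries no annotated protein. Many of them stay in the nucleus, and others reach the cytoplasm, where ribosomes can engage short reading frames in them. SnoRNA host transcripts carry snoRNAs, which guide chemical modification of ribosomal and other RNAs, mostly in their introns. The spliced exons of several hosts begin with a run of pyrimidines like that of ribosomal protein messages, are exported, and are bound by ribosomes and decayed by the nonsense-mediated pathway. LARP6 is a La-related protein known for binding the stem-loop of collagen messages.

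The start of the host transcripts is shown because it is the sequence feature that hosts are known to share with messages of the translation machinery. RefSeq (GRCh38.p14) gave a start for 14 of the 18 hosts measured. The motif searched was C followed by at least 4 of C or T, on the transcript's own strand at its first base. It was present in 5 of these 14 hosts (35.7%), against 4.04% of all 27305 RefSeq starts and 5.44% of the 8982 starts of genes in the table. The first 30 bases of the 5 follow, 5′ to 3′, with the leading pyrimidines in capitals.
SNHG12: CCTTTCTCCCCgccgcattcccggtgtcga
SNHG18: CTCCTCCTCCTCCTCCTCCCCgccggggtg
SNHG32: CTTTTTgcgaagtgggctcgtgggttggca
SNHG5: CTTTTacgtcggccttcgcgagcgtctggg
ZFAS1: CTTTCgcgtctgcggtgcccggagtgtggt
None of these 5 transcripts changed past the threshold. The GENCODE transcripts can start at another base. By them the motif was present in 3 of the 9 matched hosts (SNHG12, SNHG18 and SNHG25), against 2.92% of all matched transcripts in the table, so SNHG25, the host that was called, begins with it in that annotation.

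SNHG25 is shown whole because it was the snoRNA host whose efficiency rose and because a snoRNA lies within its exons rather than in an intron. The transcript lies on chr17:64145970-64146476 of GRCh38, on the plus strand, with 2 exons and 278 bases. Capitals mark bases 141 to 273, the 133 bases that GENCODE assigns to the snoRNA SNORA50C as well.
SNHG25: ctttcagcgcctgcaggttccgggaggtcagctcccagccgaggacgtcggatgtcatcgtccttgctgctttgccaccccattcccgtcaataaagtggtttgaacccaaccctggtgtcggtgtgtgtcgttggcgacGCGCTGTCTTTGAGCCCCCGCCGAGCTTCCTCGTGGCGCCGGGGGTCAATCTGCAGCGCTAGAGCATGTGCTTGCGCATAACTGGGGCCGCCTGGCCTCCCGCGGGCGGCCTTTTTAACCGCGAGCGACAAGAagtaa
The shared bases make up 47.8% of the transcript.

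Long non-coding RNAs were rarely called changed in LARP6 knockdown cells, as were transcripts of the whole table. With the threshold set at 0.05 on the adjusted p of the authors' deposited table, 1 of the 178 rose and 1 fell, a share of 1.12% against 2.2% of all transcripts tested. Over all transcripts, 1.07% were called higher and 1.12% lower. At an unadjusted final p under 0.05 there were 10 (4 higher and 6 lower), or 5.62%, against 10.3% of all transcripts.

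SNHG25 was the member that rose. Its log2 efficiency was 2.44 in knockdown cells and -1.00 in control cells, a log2 change of 3.44 or 10.9-fold in the authors' deposited table (final p = 0.000831, adjusted p = 0.0400 by Benjamini-Hochberg). The snoRNA within it, SNORA50C, has a row of its own, with 5.98 in knockdown cells and 0.53 in control cells. The log2 change of SNORA50C was 5.32, with a deposited adjusted p of 0.293. Reads over bases 141 to 273 belong to both annotated RNAs, and the sources used here do not say how the authors divided them, so the efficiency of the host outside the snoRNA is not known.

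The member that fell is the row with the identifier digits 679262, which carries the word lncRNA and matched no transcript, so it has no gene name or position here. Its log2 efficiency was 1.16 in knockdown cells and 1.79 in control cells. The change was small, -0.64 or 1.55-fold lower in knockdown cells, and the authors' deposited table gives a final p of 9.3e-05 and an adjusted one of 0.00668. It was also called by each of the authors' methods alone.

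AC092807.3, a lincRNA of 508 bases on chromosome 1, came next by p. Its log2 efficiency was 0.42 in knockdown cells and 1.54 in control cells, and its log2 change of -1.13 had the authors' adjusted p of 0.0939. It shares 383 of its bases on the same strand with exons of DDAH1, an enzyme that degrades methylated arginines, and the DDAH1 row had a log2 change of 0.25. At a final p under 0.05, SNAI3-AS1 (log2 change -2.10) and the row with digits 656081 (-2.01) were also below 0. The other such members were a lincRNA transcript with the GENCODE symbol ZNF503 (-1.58) and AL049795.2 (-1.51). The last 2 share exon bases with a coding gene on the same strand, 142 of 502 bases with ZNF503 and all 667 bases with the nuclear import receptor KPNA6.

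For 3 members, the row carries exactly the values of a small structured RNA. AL355075.4, an antisense-class transcript of 638 bases on chromosome 14, had the highest efficiency of all members, 8.52 in knockdown cells and 6.03 in control cells. Its change was 2.50 (final p = 0.00525, adjusted p = 0.152 in the authors' deposited table). All 8 deposited values of this row are identical to those of RPPH1, the RNA subunit of the nuclease that trims the front end of transfer RNA precursors, and the 333 bases of RPPH1 lie at positions 279 to 611 of AL355075.4. The row with digits 660618 carries the values of RNU5E-1, a U5 spliceosomal RNA gene, with 3.61 in knockdown cells and 0.67 in control cells and a change of 2.93 (the authors' adjusted p = 0.161). AL360012.1 carries those of RNU11, the U11 RNA of the minor spliceosome, with -0.52 in knockdown cells and -1.52 in control cells and a change of 1.00 (the authors' adjusted p = 0.966). The whole of AL360012.1, 131 bases on the plus strand of chr1:28648600-28648730 in GRCh38, lies within RNU11, which is why all of it stands in capitals here.
AL360012.1: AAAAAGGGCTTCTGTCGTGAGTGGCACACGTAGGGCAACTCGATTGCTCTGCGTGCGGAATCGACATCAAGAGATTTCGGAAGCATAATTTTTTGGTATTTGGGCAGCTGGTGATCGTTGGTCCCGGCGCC
In the whole table, 22 rows form 11 such pairs of identical values. For these 3 members the table therefore does not separate the long RNA from the small one. Of the 4 members above 0 at a final p under 0.05, 3 were SNHG25, AL355075.4 and the row with digits 660618. The other was the unmatched row with digits 651540, with 5.28 in knockdown cells and 3.08 in control cells (log2 change 2.21, the authors' final p = 0.0403), whose overlap could not be checked.

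**Figure D1:**
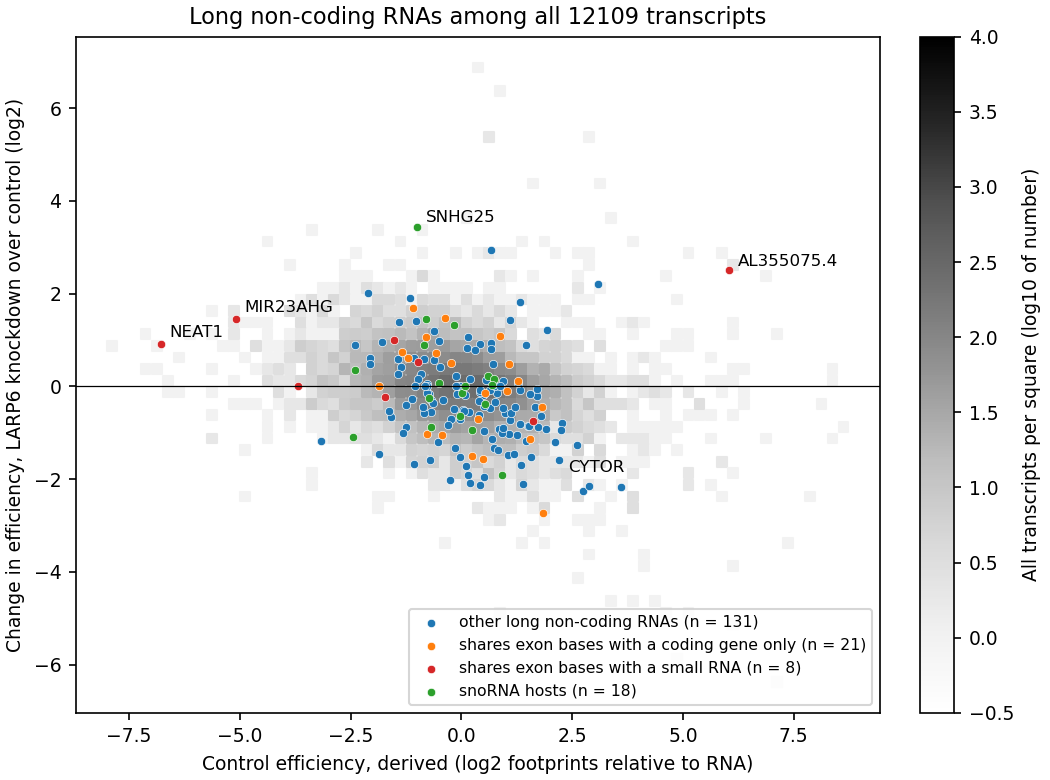
Each coloured point is a long non-coding RNA or snoRNA host, with its derived control log2 efficiency on the x axis and its log2 change, LARP6 knockdown over control, on the y axis; grey squares count all 12109 transcripts, darker for more. SNHG25 (3.44) and AL355075.4 (2.50) lie above the bulk, and NEAT1 and MIR23AHG lie at its far left.

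The 18 snoRNA hosts showed no common direction. Of these, 10 had a log2 change above 0 in the authors' deposited table and 8 below 0, with a median of 0.02, beside a median of 0.02 over all transcripts. SNHG25 alone was called or had a final p under 0.05 (5.56% of the hosts), against 2.2% and 10.3% of all transcripts. Changes of at least 1 in size were listed for 5 hosts, 3 higher and 2 lower, and 9 hosts had a change under 0.5 in size.

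Hosts with the pyrimidine start differed from one another. ZFAS1, whose transcript hosts C/D box snoRNAs beside the gene ZNFX1, stood at 0.72 in knockdown cells and 0.68 in control cells (log2 change 0.03, the authors' final p = 0.940). SNHG32 stood at -0.13 in knockdown cells and 0.01 in control cells (-0.15, the authors' final p = 0.680). SNHG5 had -0.67 in knockdown cells and -0.02 in control cells, a change of -0.64 with the authors' final p at 0.353. Lower values in knockdown cells were also listed for SNHG12, at -1.56 against -0.68 in control cells (the authors' final p = 0.474), and for SNHG18, at -1.00 against 0.91 in control cells. With a log2 change of -1.91 and a final p of 0.0556, SNHG18 was the host with the largest change below 0, and it did not pass the threshold. All 5 lay within 1 log2 unit of the typical transcript in control cells.

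Among the other hosts, SNHG6, SNHG8 and SNHG29 were close to or above the typical transcript in both conditions. SNHG6 had 0.88 in knockdown cells and 0.73 in control cells, SNHG29 had 0.81 in knockdown cells and 0.59 in control cells, and SNHG8 had 0.15 in knockdown cells and 0.54 in control cells. Positive log2 changes without a call were listed for SNHG16 (1.45, the authors' final p = 0.367), SNHG30 (1.32, the authors' final p = 0.344) and SNHG1 (0.89, the authors' final p = 0.179), a host of several snoRNAs. Negative ones were listed for SNHG3 (-1.09), SNHG17 (-0.95) and SNHG9 (-0.24), and SNHG7 (0.34), SNHG11 (0.06) and SNHG15 (0.02) completed the set. SNHG3 and SNHG7 were the hosts with the lowest control efficiency. SNHG3 had -3.53 in knockdown cells and -2.44 in control cells, and SNHG7 had -2.05 in knockdown cells and -2.40 in control cells. SNHG3 shares 242 bases on the same strand with RCC1, the chromatin-bound exchange factor of the GTPase Ran, whose log2 change was 1.24. GAS5, a well-studied host outside the rule, was listed at a change of exactly 0, with -2.06 in both conditions.

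**Figure D2:**
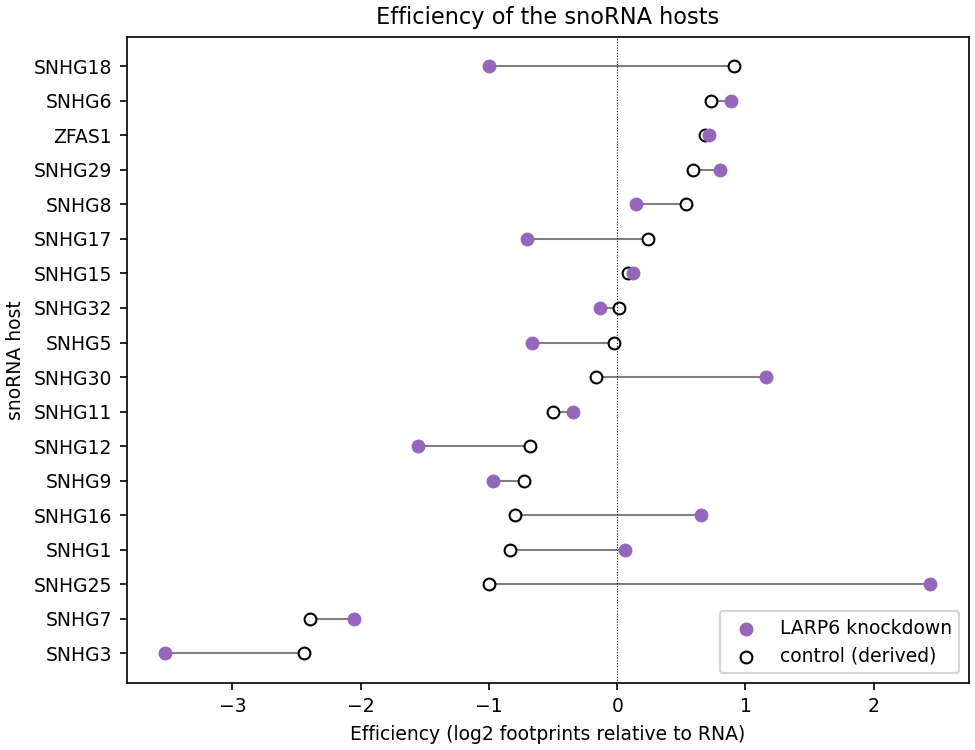
Each row is 1 of the 18 snoRNA hosts, ordered by control level, with its log2 efficiency in LARP6 knockdown cells (filled) and in control cells (open, derived) on the x axis. SNHG25 has the longest line, to 2.44 in knockdown cells, and the points of ZFAS1 and SNHG15 nearly coincide.

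Efficiency over all members was spread around the level of protein-coding transcripts rather than far below it. The median log2 efficiency of the 178 was -0.06 in knockdown cells and 0.16 in control cells, against -0.03 in knockdown cells and -0.04 in control cells for 10560 protein-coding transcripts. The interquartile range of the members was -0.94 to 0.76 in knockdown cells and -0.79 to 0.98 in control cells. Only transcripts that entered the deposited table are counted here, and the sources used here do not state the filter that admitted them. A footprint-sized fragment that pelleted with ribosomes and a true ribosome footprint cannot be told apart in these values. The longest reading frame from an ATG to a stop in the 135 matched members had a median of 91 codons, and 53 of them (39.3%) held one of at least 100 codons. The longest, 449 codons, was in ARHGEF17-AS1, which stood at -0.06 in knockdown cells and -0.62 in control cells.

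The 3 lowest control efficiencies were those of very long transcripts. NEAT1, the RNA scaffold of nuclear paraspeckles, had the lowest value, -5.86 in knockdown cells and -6.78 in control cells, for a single-exon transcript of 22743 bases (log2 change 0.92, the authors' final p = 0.0799). MIR23AHG, a transcript of 19049 bases that contains the hairpins MIR23A, MIR27A and MIR24-2, followed at -3.64 in knockdown cells and -5.09 in control cells (1.46, the authors' final p = 0.236). AL022311.1, of 19416 bases, was listed at -3.70 in both conditions. Each of these 3 also holds small RNA genes within its exons. AL118506.1 came next, with -4.35 in knockdown cells and -3.17 in control cells at a length of 3082 bases.

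Across the 135 matched members, longer transcripts had lower efficiency. The Spearman correlation between length and control log2 efficiency was -0.48 (n = 135). It was -0.54 in the 102 members that share no exon base on the same strand with a coding or small RNA gene. Entries typed as miscellaneous RNA were counted as small RNA genes. The relation was not particular to non-coding RNAs, with a Spearman correlation of -0.41 over 10560 protein-coding transcripts; all points come from the same libraries, and length and reading frame vary together. The 11 members of at least 5000 bases had a median control level of -1.59, and the 15 members under 500 bases 1.07. Protein-coding transcripts had medians of -0.57 at 5000 bases or more and 1.55 under 500 bases. A longer reading frame did not go with a higher level, since the Spearman correlation between its codons and the control level was -0.28. The median change was 0.07 in the 15 members under 500 bases, -0.43 in the 109 members of 500 bases or more but under 5000 and 0.48 in the 11 members of at least 5000 bases. Changes below 0 were listed for 7 of the 15 shortest, 71 of the 109 of middle length and 3 of the 11 longest. The Spearman correlation between length and log2 change was only 0.05 over the 135 members. Some of the longest, NEAT1 and MIR23AHG among them, also share exon bases with another gene on the same strand.

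**Figure D3:**
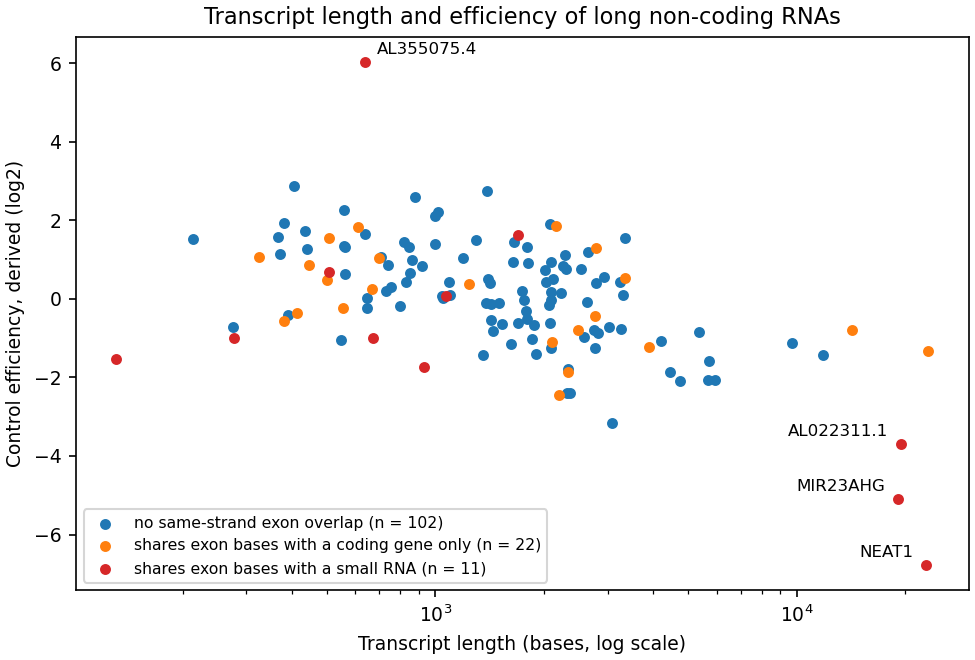
Each point is 1 of the 135 matched members, with transcript length in bases on a log x axis and derived control log2 efficiency on the y axis, coloured by what it shares exon bases with on the same strand. Levels fall with length (Spearman correlation -0.48); NEAT1, MIR23AHG and AL022311.1 sit at the lower right and AL355075.4 at the top.

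The remaining listed long non-coding RNAs showed no call. Of the 4 microRNA hosts, MIR100HG was above the typical transcript, at 1.25 in knockdown cells and 1.33 in control cells (log2 change -0.07). MIR193BHG had -1.42 in knockdown cells and -0.85 in control cells (-0.57). MIR22HG, the host of miR-22, had -1.97 in knockdown cells and -1.73 in control cells (-0.23). These are values of the long hosts and not of the mature microRNAs.

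By name, 4 members were on a list of 30 fibroblast and stellate cell RNAs: CYTOR, LINC00941, MIR100HG and NEAT1. CYTOR, a largely cytoplasmic RNA described in migrating and tumour cells, had the largest listed difference of these. It stood at 0.61 in knockdown cells and 2.20 in control cells. Its log2 change of -1.59 had a final p of 0.163 and was not called. LINC00941 has 2 rows, from 2 gene identifiers of that symbol, with opposite signs. The transcript of 1355 bases had -0.84 in knockdown cells and -1.43 in control cells (0.59), and the one of 843 bases, listed under the word lncRNA, had 0.53 in knockdown cells and 1.33 in control cells (-0.80). The X-linked regulators JPX and FTX both stood above the typical transcript, JPX at 0.87 in knockdown cells and 1.62 in control cells, and FTX at 0.04 in knockdown cells and 1.07 in control cells. Their log2 changes were -0.75 and -1.03, with final p-values of 0.323 and 0.470. None of the 9 imprinted RNAs listed was found by name among the members. HYMAI, an imprinted RNA of the PLAGL1 locus that was not on that list, was a member, with 0.41 in knockdown cells and 0.54 in control cells (-0.13). By name, JPX, FTX and NEAT1 were the members of a list of nuclear RNAs, and CYTOR and SNHG5 those of a list of cytoplasmic ones.

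The changes of long non-coding RNAs were larger in size than those of other transcripts and lay more often below 0, though hardly any was called. A log2 change of at least 1 in size was listed for 60 of 178 (33.7%; 21 higher and 39 lower), against 10.6% of all transcripts and 8.81% of protein-coding ones. Of those 60, 1 was called (1.67%), against 110 of 1282 in the whole table (8.58%). Shares with a change of at least 1 in size were 30.2% in the 53 protein-coding transcripts under 500 bases and 23.1% in 65 rows of other long non-coding RNAs outside the rule. The median size of change was 0.72 for the members and 0.33 for all transcripts. Without values per library, how much of this wider spread is measurement error was not tested.

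In direction, 105 of 178 members (59.0%) were below 0, 64 above and 9 at exactly 0, while 47.3% of all transcripts were below 0. The median log2 change was -0.22 for the members and 0.02 for all transcripts. It was also -0.22 for the 53 protein-coding transcripts under 500 bases, with 62.3% of them below 0. The tilt differed between kinds of member. The median was -0.45 for lincRNAs, -0.30 for antisense transcripts and 0.02 for snoRNA hosts. Among the 102 matched members with no same-strand exon overlap, 68 (66.7%) were below 0 and the median was -0.44. None of these 102 was called, against 2.2% of all transcripts. A final p under 0.05 was listed for 1 of them (0.98%), against 10.3% of all transcripts. The 23 members that share exon bases with a coding gene had a median of 0 exactly. The 11 that share them with a gene typed as small or miscellaneous RNA had a median of 0.54 and 8 of 11 above 0. Of these 11, 1 also shares bases with a coding gene. HOTAIRM1, JPX and ZFAS1 are in this group only through entries typed as miscellaneous RNA, which need not be separate small RNAs. The 43 unmatched members, whose overlap is not known, had a median of -0.14. The 65 rows of other long non-coding RNAs outside the rule, most typed as processed transcripts, had a median of 0.00 and 47.7% below 0.

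**Figure D4:**
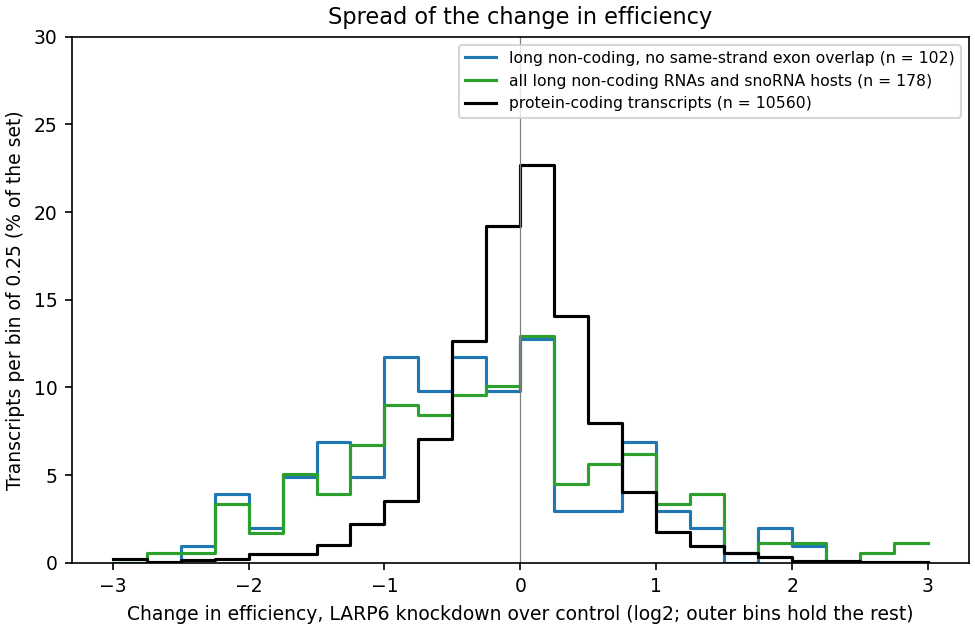
The y axis gives the percentage of each set of transcripts per bin of 0.25 in log2 change, LARP6 knockdown over control, on the x axis; values beyond 3 in size are in the outer bins. Long non-coding RNAs (n = 178) spread wider than protein-coding transcripts (n = 10560), and those without same-strand exon overlap (n = 102) lie more to the left, with a median of -0.44.

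Divergent transcripts start beside a coding gene and run away from it. The 18 members whose deposited names end in -DT had the lowest median of the groups named here, -0.87, and 14 of them were below 0. MILIP, which GENCODE names MAFG-DT, is not among these 18 and had a log2 change of 1.38. The 46 members whose names hold -AS had a median of -0.38. ODC1-DT, beside the gene of the first enzyme of polyamine synthesis, had -1.90 in knockdown cells and 0.19 in control cells (log2 change -2.09, the authors' final p = 0.285). FAM111A-DT had -1.44 in knockdown cells and 0.51 in control cells (-1.94, the authors' final p = 0.0949), and CRIM1-DT had 0.03 in knockdown cells and 1.56 in control cells (-1.53, the authors' final p = 0.0921). In the other direction, NUP50-DT had 0.59 in knockdown cells and -0.61 in control cells (1.20, the authors' final p = 0.0565). None of the 18 had a final p under 0.05, where 10.3% of all transcripts did.

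Among antisense transcripts the largest listed differences were of low certainty. AC093827.4 had the lowest log2 change of all members, -2.74, at a final p of 0.0779. ZNF566-AS1 had 0.48 in knockdown cells and 2.73 in control cells (-2.26, the authors' final p = 0.0568), CDK6-AS1 had 0.89 in knockdown cells and 2.87 in control cells (-2.16, the authors' final p = 0.133), and SNAI3-AS1 had -0.71 in knockdown cells and 1.39 in control cells (-2.10, the authors' final p = 0.0394). THUMPD3-AS1 had -1.71 in knockdown cells and 0.42 in control cells (-2.13, the authors' final p = 0.0956). On the positive side, after AL355075.4, stood NNT-AS1, with -0.08 in knockdown cells and -2.10 in control cells (2.02, the authors' final p = 0.0515). None of these antisense transcripts was called, and the adjusted p in the authors' deposited table was 0.433 for SNAI3-AS1 and 0.495 for NNT-AS1. CDK6-AS1 and ZNF566-AS1 were also among the 5 members with the highest control efficiency, beside AL355075.4, the row with digits 651540 and 1 more unmatched row at 1.43 in knockdown cells and 3.61 in control cells.

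The coding genes that these RNAs are named after shared no direction with them. Of 65 members named after a gene, 53 had that gene in the table. Leaving out 4 members at exactly 0, the signs of member and gene matched in 24 pairs and were opposite in 25, of which 20 had the non-coding RNA below 0 and the gene above. The Spearman correlation between the log2 changes was 0.13 over the 53 pairs, all measured in the same libraries. The median size of change was 0.88 for the non-coding RNAs and 0.28 for the genes, and the non-coding RNA had the larger change in 38 pairs. In control cells it also had the higher efficiency in 33 of 53.

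Of the 53 coding genes 2 were called, where 2.32% of all protein-coding transcripts were. UGDH, which makes the UDP-glucuronic acid used for matrix polysaccharides, fell by 1.04 in log2 efficiency (the authors' adjusted p = 1.3e-09), while UGDH-AS1 had 0.09 in knockdown cells and 0.40 in control cells (-0.31, the authors' adjusted p = 0.989). CRIM1, a membrane protein that binds bone morphogenetic proteins, fell by 0.61 (the authors' adjusted p = 0.0019), and CRIM1-DT was not called. ODC1 itself had a log2 change of -0.87 with an adjusted p of 0.155. SOCS2-AS1 and its gene SOCS2, a feedback inhibitor of cytokine signalling, both had positive values, 0.90 and 1.45, and neither was called.

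**Figure D5:**
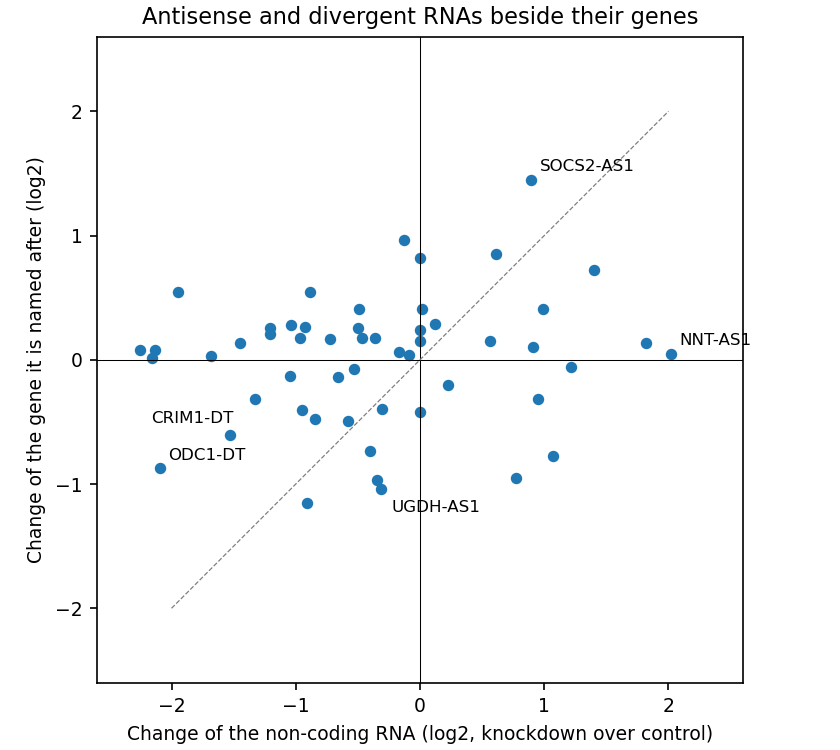
Each of the 53 points is a non-coding RNA and the coding gene it is named after, with the log2 change (LARP6 knockdown over control) of the non-coding RNA on the x axis and of the gene on the y axis; the dashed line marks equal change. The points form a flat band, with a Spearman correlation of 0.13, and most lie nearer to 0 on the y axis than on the x axis.

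Exon overlap was common, and its direction bears on how far a row stands for the RNA it names. Of the 135 matched members, 62 overlap a coding exon on the opposite strand, 54 of the 71 antisense transcripts among them, and the sources used here do not state whether the authors' counting used strand. In the 52 measured pairs with opposite-strand overlap the signs matched in 27 and were opposite in 19, with a value of exactly 0 in the other 6, and the Spearman correlation between log2 changes was 0.20. In the 21 pairs with same-strand overlap the signs matched in 15 and were opposite in 4, with 2 at exactly 0, and the correlation was 0.43. Both are descriptions of shared libraries. The 48 members with no overlap of exons on either strand had a median log2 change of -0.51, with 35 of 48 below 0. PXDC1, whose exons overlap AL391422.4 on the opposite strand, was called lower with a log2 change of -1.07, and AL391422.4 itself was listed at -0.88 without a call.

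RNAs annotated at some time as non-coding and described as encoding a small protein offer a point of comparison, and 7 of those listed were found by name. MIR22HG, described above, was the member among them, and TUG1 has another non-coding type. The other 5 are typed as protein-coding. MTLN, whose product is a small mitochondrial protein, had 1.25 in knockdown cells and 1.90 in control cells (log2 change -0.66, the authors' final p = 0.0557). SMIM26 had 1.45 in knockdown cells and 1.64 in control cells, and NCBP2AS2 had 1.08 in knockdown cells and 1.24 in control cells. NBDY, which encodes a component of mRNA decapping bodies, had 0.71 in knockdown cells and 0.96 in control cells. BRD3OS had -1.22 in knockdown cells and -1.01 in control cells, and TUG1 had -1.44 in knockdown cells and -1.93 in control cells. In control cells 3 of the 7 lay above the upper quartile of the members, 0.98, and 3 lay below their lower quartile, -0.79. None of the 7 was called.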

How the data were processed

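Ribosome profiling and RNA-seq of hepatic stellate cells gave 8 libraries in 4 groups of 2. Cutadapt, Bowtie and the build hg38 (GRCh38) stand in the submitters' processing notes; their versions, the treatment of reads with several matches and the program behind the comparison are not stated there. Per the file headers, the authors deposited log2 changes of translation efficiency by 2 methods and a final one, the knockdown log2 efficiency, and p-values of each method, final and adjusted. The deposited final p-value is the larger of the 2 methods' in 12109 of 12109 rows, and the adjusted one is its Benjamini-Hochberg adjustment over all rows. Depth per library is unknown. As the program is not stated, what spread the p-values reflect is not known, and it may be technical.

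Identifier digits were matched to GENCODE release 29, starts and names to RefSeq GRCh38.p14; 43 members matched no transcript. Control levels were derived by subtraction; knockdown levels minus the change had an SD of 1.27, against 1.61 for the sum, which gave the direction. Overlaps, reading frames, lengths and identical rows were computed with Python 3.11.15, pandas 2.3.3 and numpy 2.4.6. The p adjustment was tested on simulated p-values, and the reading-frame, start-motif and membership rules on short made-up examples. The overlap and identical-row steps had no such test. Members, lists and alternatives were chosen with earlier results of these data known. Named were all snoRNA hosts, measured members of the lists, called members, the 5 largest changes in each direction at a final p under 0.05 and the 5 highest and 5 lowest control levels; other RNAs and genes were named after their values were seen. Set tests were not run.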

Additional observations from a re-analysis of the deposited data

How the results depend on the processing

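No paired analysis was possible because the deposited table gives no value per library, and no library could be left out. The count of 2 members called became 1 at an adjusted p under 0.01, 1 when a change of at least 2-fold was also asked, 1 over matched rows alone, 1 without the rows taken by the word lncRNA and 1 without the 33 rows with same-strand overlap, which include SNHG25. It was 0 over the 102 matched rows without such overlap (1 at an unadjusted p under 0.05), which leave out the 43 unmatched rows too, the row with digits 679262 among them. By the authors' second method alone it became 5 (AC092807.3, AL355075.4, SNHG25 and the rows with digits 660618 and 679262), and that method called 342 transcripts in the table. It stayed at 2 by the first method and was 3 at an adjusted p under 0.1. The median log2 change of -0.22 became -0.34 without the rows with same-strand overlap, -0.28 over matched rows alone and -0.44 with both choices together. It lay between -0.30 and -0.22 under the other 5 alternatives. The combined choice and leaving out changes of exactly 0 were added after the data were seen. Median levels in knockdown and control cells moved by less than 0.1. Why the values move was not tested beyond the fewer members each alternative keeps. Depth cannot be judged, and 43 unmatched members could not be checked for overlap.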
